A study of Mus musculus with 2 samples.

Results

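CTCF sites in the coding exons of newborn mouse lung numbered 1502 of the 64732 sites listed for the autosomes 1 to 19 and X, a share of 2.32% (2.21 to 2.44%). A site was a peak of the optimal list, which the authors thresholded by the irreproducible discovery rate (IDR), a measure of how well peaks repeat between replicates. A coding exon site had its summit, the point of highest signal, in coding sequence (CDS) of GENCODE release M21 and more than 1000 bp from the transcription start site (TSS) of every protein-coding transcript. Binding was measured by ChIP-seq with a CTCF antibody in lung tissue of strain B6NCrl mice at postnatal day 0. There was 1 group with 2 replicates and no comparison condition. Since the labels name 1 shared biosample and donor for the replicates, their spread may be technical rather than biological. Whole lung holds many cell types, and few cells with a bound site cannot be told apart from weak binding in many cells. Intervals in parentheses beside shares are 95% Wilson intervals, which cover counting error only.

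CTCF is a protein with a row of zinc fingers that bind a long DNA motif, and it stops the movement of cohesin along chromatin at many loop anchors. The core of that motif reads differently on the opposite strand, so each site has an orientation, and methylation of a CpG within the motif is known to weaken it. In a coding exon the same bases must also spell codons, and CTCF bound within a gene is known in some genes to affect the splicing of nearby exons.

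The first set of sequences shows how the 12 bp core of the CTCF motif was embedded in codons, with the highest site of each combination of strand and codon position. Each line gives 61 bases of the GRCm38 reference on the coding strand of the gene, in the direction of translation, with the core in capitals. A core on the template strand appears as its reverse complement.
Spata31d1d, coding strand, first core base at codon position 1, chr13:59728582-59728642: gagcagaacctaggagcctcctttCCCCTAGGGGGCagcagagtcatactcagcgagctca
Dst, coding strand, codon position 2, chr1:34218482-34218542: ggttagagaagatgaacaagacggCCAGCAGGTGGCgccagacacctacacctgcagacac
Spi1, coding strand, codon position 3, chr2:91115232-91115292: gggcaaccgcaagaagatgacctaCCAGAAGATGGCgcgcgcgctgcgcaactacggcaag
Pgls, template strand, codon position 1, chr8:71596093-71596153: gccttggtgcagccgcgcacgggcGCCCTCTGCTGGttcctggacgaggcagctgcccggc
Zfp219, template strand, codon position 2, chr14:52008971-52009031: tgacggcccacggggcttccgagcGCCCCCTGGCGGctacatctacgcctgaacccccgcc
Ltb, template strand, codon position 3, chr17:35195834-35195894: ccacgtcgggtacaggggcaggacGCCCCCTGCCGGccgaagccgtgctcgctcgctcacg

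The second set shows 4 further sites that the results return to. Gdf15 had the site of highest pooled signal, with cores of equal match on both strands, Nfkb2 and Numa1 were among the next highest, and the Ptprc site lay in an exon that most of its transcripts skip.
Gdf15, chr8:70629915-70629975: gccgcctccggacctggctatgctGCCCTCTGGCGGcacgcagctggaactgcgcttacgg
Nfkb2, chr19:46309236-46309296: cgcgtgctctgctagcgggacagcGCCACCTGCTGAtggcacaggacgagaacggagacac
Numa1, chr7:101998671-101998731: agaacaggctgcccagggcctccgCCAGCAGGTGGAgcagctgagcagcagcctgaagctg
Ptprc, chr1:138120078-138120138: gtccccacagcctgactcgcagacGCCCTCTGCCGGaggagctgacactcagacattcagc

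The third set shows the 3 highest sites at which no core was found even with 2 mismatches within 50 bp of the summit. They are centred on the summit and hold no capitals.
Btbd19, chr4:117121278-117121338: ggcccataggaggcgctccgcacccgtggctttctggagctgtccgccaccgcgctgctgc
Lpar5, chr6:125081988-125082048: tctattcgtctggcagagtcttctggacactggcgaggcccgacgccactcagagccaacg
Arhgef18, chr8:3450860-3450920: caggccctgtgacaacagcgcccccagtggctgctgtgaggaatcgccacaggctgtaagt

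The coding exon sites were spread over 1373 of the 19600 protein-coding genes that had coding sequence far enough from a TSS to hold one, a background of 7.01%. In 1247 of these genes there was 1 site, in 119 there were 2, in 6 there were 3, and Syne2 had 4. Of the 1502 sites, 1432 lay in the coding sequence of the transcript chosen to represent the gene. In the conservative IDR list were 1314 of them (87.5%, 85.7 to 89.1%), much the same as the 87.4% of all listed sites. Both replicates had a peak within 100 bp of the summit at 1462 sites, while 16 sites lacked one in replicate 1 and 26 lacked one in replicate 2. Of all 64732 listed sites, 777 lacked one in replicate 1 and 940 in replicate 2. Another 1030 summits in coding sequence lay within 1000 bp of a protein-coding TSS and were left out. At the edge of that rule, the 39 sites between 900 and 1000 bp from a TSS had a median pooled signal of 61.02 and a core at 33.3%, and the 31 sites between 1000 and 1100 bp had a median of 72.7 and a core at 29.0%.

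The signals of the coding exon sites ranged widely and were closely alike in the replicates where they were high. Signal is the value of each peak as the authors' caller wrote it, on a scale that the labels and files do not state, and the pooled value comes from both replicates together. Over the sites with both values, the median was 40.6 in replicate 1 and 37.7 in replicate 2. The SD of the log2 ratio of replicate 1 to replicate 2 was 0.13 in the top quartile of sites by pooled signal and 0.74 in the bottom quartile. In that top quartile 0 of 366 sites differed by more than 2-fold between replicates, against 54 of 366 (14.8%) in the bottom. Weak sites carried most of the replicate error, and single values among them are the least certain.

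**Figure D1:**
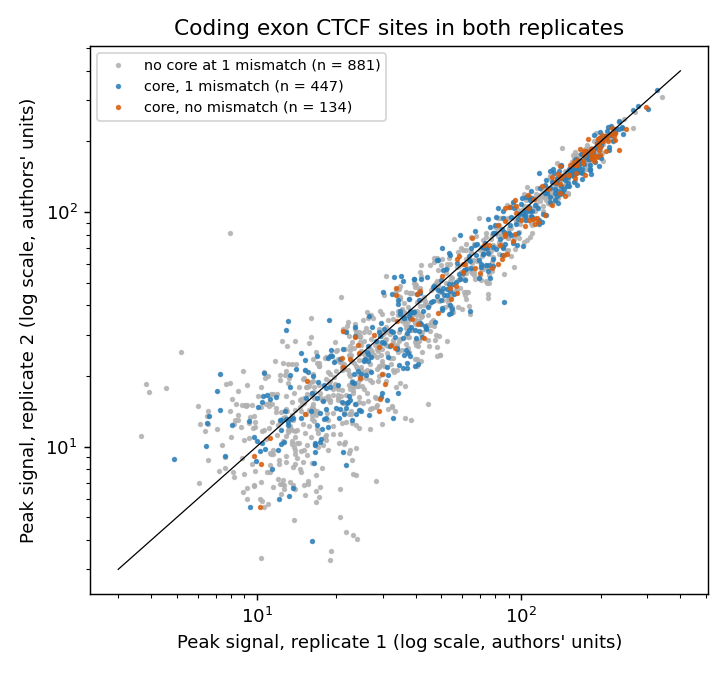
Signal of each coding exon site in replicate 1 (x axis) and replicate 2 (y axis), both log scales in the authors' units, for the 1462 sites with a peak in both. Points are coloured by the core, the line marks equal values, and the points spread out towards low signal.

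Among the strongest coding exon sites, the one in Gdf15, which encodes a stress-induced cytokine, had 326 in replicate 1 and 332 in replicate 2 in the last of its 2 coding exons, 2169 bp from the nearest TSS. A site in the predicted gene Gm16253 had 341 in replicate 1 and 309 in replicate 2, so its range overlapped with that of Gdf15 and the order of this pair is not resolved. Spi1, an ETS transcription factor of myeloid and B cells, had 302 and 276 in the last of its 5 coding exons. Both Gdf15 replicates were above both Spi1 replicates. Pgls, an enzyme of the pentose phosphate pathway, had 296 in replicate 1 and 279 in replicate 2, also in the last coding exon of 5. Zfp219, a zinc finger protein, had 276 and 285 in a coding exon of 1435 bp. The values of Spi1, Pgls and Zfp219 overlapped between replicates, so their order is not resolved.

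Sites in predicted genes are left out of the genes that follow. Def6, a guanine nucleotide exchange factor of lymphocytes, had 264 in replicate 1 and 273 in replicate 2. Tradd, an adaptor of the tumour necrosis factor receptor, had 266 and 228. Nfkb2, a precursor of an NF-kappa-B subunit, had 241 and 231. Tradd overlapped in its replicate range with Def6 and with Nfkb2, while Def6 was above Nfkb2 in both replicates. Hook2, which links cargo to microtubules, had 234 and 244, and Pear1, a receptor of platelets and endothelium, had 234 and 243. Numa1, a protein of the spindle poles, had 235 and 226, within a coding exon of 3360 bp. Srcin1, an inhibitor of the kinase Src, had 241 and 228, and Ccdc194, a coiled-coil gene, had 244 and 249. Hook2, Pear1, Numa1 and Srcin1 could not be ordered beyond their replicate spread. Of the 1000 sites with the highest pooled signal in the whole list, 23 were in coding exons. That is close to the 2.32% that coding exon sites made up of the whole list. The Gdf15 site had the highest pooled value of the coding exon sites, 652.

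The weakest sites with a peak in both replicates were in Tnfaip8l2, Krt7 and Ppp1r16b. Tnfaip8l2, a negative regulator of immunity, had 6.04 in replicate 1 and 6.99 in replicate 2. Krt7, a keratin of simple epithelia, had 9.17 and 5.97, and Ppp1r16b, a regulatory subunit of protein phosphatase 1, had 7.20 and 7.87. None of these 3 sites had a core and none was in the conservative list.

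Coding exons held CTCF sites at a higher density than introns but with the core less often. There were 50.7 sites per Mb of eligible coding sequence (29.6 Mb more than 1000 bp from a protein-coding TSS), against 26.6 per Mb in introns, 38.2 per Mb in untranslated exon sequence and 16.2 per Mb in intergenic sequence under the same rule. With at most 1 mismatch, 588 of 1502 coding exon sites had a core within 50 bp of the summit (39.2%, 36.7 to 41.6%). The same search found it at 53.0% of intronic sites (52.4 to 53.6%), 51.7% of sites in untranslated exon sequence (48.9 to 54.4%) and 20.7% of promoter sites (19.98 to 21.5%). In windows of the same width 1000 bp away from the coding exon summits the share was 1.60% (1.21 to 2.11%). The interval of the coding exon sites overlapped with neither the intronic nor the flanking one. The difference between coding exon and intronic sites narrowed from 13.8 to 7.96 percentage points when 2 mismatches were allowed, where 73.0% of coding exon sites and 81.0% of intronic sites held a core.

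**Figure D2:**
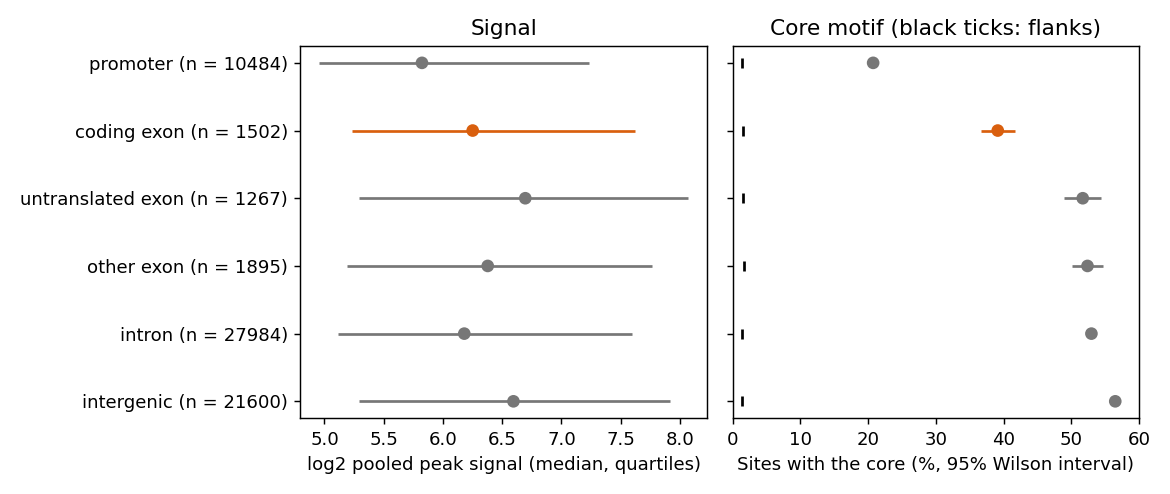
Left, the median log2 pooled signal of the sites in each class of sequence, with bars from the lower to the upper quartile. Right, the share of sites with the core and its 95% Wilson interval, with black ticks for flanking windows 1000 bp away: 39.2% of coding exon sites and 53.0% of intronic sites had the core.

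The median pooled signal was 76.2 at coding exon sites and 72.5 at intronic sites, a difference of 0.07 on the log2 scale. With each replicate alone it was between 0.0295 and 0.0750. The difference changed sign, to -0.02, when the list was restricted to its 32366 sites of highest signal, so its direction depended on which sites were listed.

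The better the core matched, the higher the signal was. The 135 coding exon sites with a perfect core had a median pooled signal of 204, with 106 in replicate 1 and 102 in replicate 2. The 453 sites with 1 mismatch had a median of 109, with 54.6 and 52.8 in the replicates. The 509 sites whose closest match had 2 mismatches had a median of 69.9, and the 405 sites with no such match had 47.3. Read the other way, the core was found at 60.9% of sites in the top quartile of signal, 41.6% in the next, 30.9% in the third and 23.1% in the bottom quartile. Cores lay close to the summits, with a median distance of 6.5 bp, and 93.0% were within 25 bp.

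Some strong coding exon sites had no core with up to 2 mismatches, as in the third set of sequences. Looser matches were not searched for. Btbd19, a BTB domain gene, had 213 in replicate 1 and 205 in replicate 2. Lpar5, a receptor for lysophosphatidic acid, had 191 and 218, and Arhgef18, a guanine nucleotide exchange factor, had 205 and 196. All 3 were above the median of the perfect-core sites in both replicates. Their summits lay 43 bp, 1419 bp and 132 bp from the nearest TSS of any transcript, coding or not.

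The TSS rule used protein-coding transcripts alone, and a TSS of some other annotated transcript was within 1000 bp of 335 coding exon sites (22.3%, 20.3 to 24.5%). The share was 15.5% for positions taken every 50 bp along eligible coding sequence, and 6.83% for intronic sites. Coding exon sites near such a TSS had the core at 37.0% (32.02 to 42.3%) and the others at 39.8% (37.0 to 42.6%). Their median pooled signals were 76.4 and 76.1, so neither measure separated them.

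Not every core in coding sequence was occupied. Eligible coding sequence held 3950 cores with at most 1 mismatch, and a site summit lay within 50 bp of 547 of them (13.8%, 12.8 to 14.96%), against 16.0% in introns (15.8 to 16.3%) 20.9% in untranslated exon sequence (19.6 to 22.4%) and 12.7% in intergenic sequence (12.5 to 12.9%). Of the 236 perfect cores in coding sequence, 128 had a site (54.2%, 47.9 to 60.5%), against 65.02% in introns (63.8 to 66.3%) 77.7% in untranslated exon sequence (72.5 to 82.3%) and 60.2% in intergenic sequence (58.9 to 61.4%). The coding interval lay below the intronic and untranslated ones at either match and overlapped with the intergenic one at both. With 2 mismatches allowed, the share was 3.36% in coding sequence and above the intronic share by 0.05 percentage points.

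The base after the core differed between cores with and without a site. A G directly after the core, on the core's own strand, was found at 281 of 547 coding cores with a site (51.4%, 47.2 to 55.5%) and at 11.9% of the 3403 without one (10.8 to 13%). In introns these shares were 32.4% (31.7 to 33.2%) and 10.8% (10.6 to 11.03%). Perfect cores, which had a site more often, were not separated here from those with 1 mismatch. The full core ends in C, so such a G completes a CpG, though methylation was not measured. The core is only a part of the longer motif, and a role of the base after it in the match was not tested. The Dst and Spi1 sequences above show it after the capitals, and those of Pgls, Zfp219 and Ltb show it as a c directly before them.

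The core was read in every strand and codon position, but not equally often. Of the 588 cores of coding exon sites, 501 had 1 better strand and lay whole in coding sequence with 1 reading frame. On the coding strand there were 208 (41.5%, 37.3 to 45.9%), and 293 (58.5%, 54.1 to 62.7%) were on the template strand. The most frequent arrangement was on the template strand with the first base of the core region, in the direction of translation, at codon position 2, as in Zfp219, with 147 cores (29.3%, 25.5 to 33.5%). Next came the coding strand at position 3, as in Spi1, with 103 (20.6%, 17.2 to 24.3%). The rarest was the coding strand at position 2, as in Dst, with 33 (6.59%, 4.73 to 9.11%).

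All cores in eligible coding sequence, occupied or not, had much the same mix. Among 3889 of them, 28.0% (26.6 to 29.4%) were on the template strand at position 2, 22.2% (20.9 to 23.5%) on the coding strand at position 3 and 6.61% (5.87 to 7.43%) on the coding strand at position 2. The share of cores with a site was between 11.9% and 16.4% over the 6 arrangements. It was 12.8% (11.3 to 14.4%) on the coding strand and 14.9% (13.4 to 16.4%) on the template strand, intervals that overlap. The unequal shares among sites were thus present in the coding sequence itself, and no preference of bound sites for a strand or a frame was resolved.

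**Figure D3:**
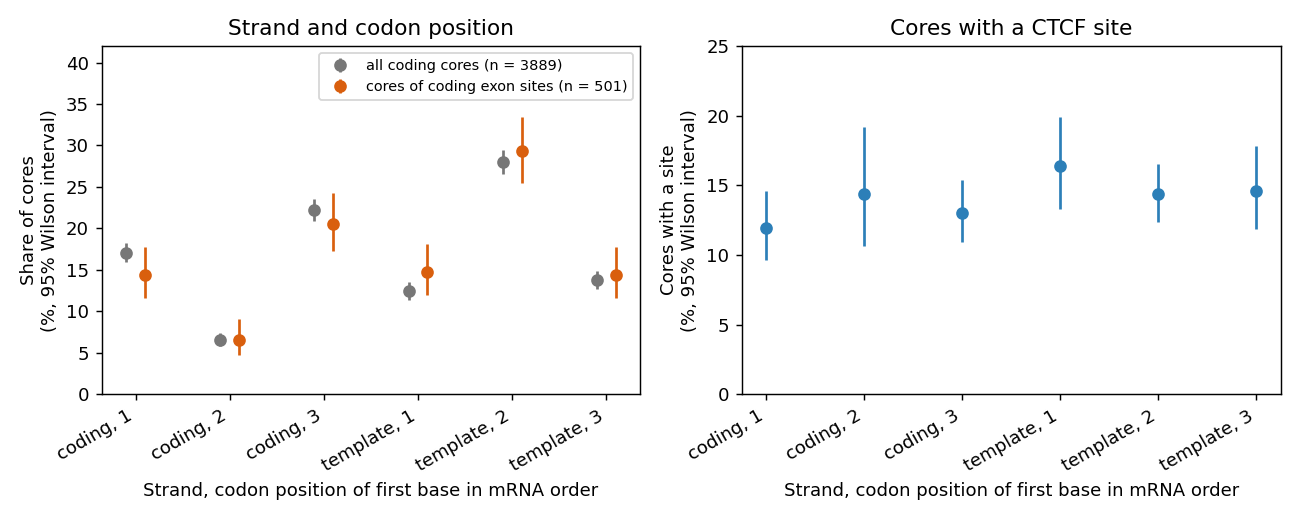
Left, the share of cores by strand and by the codon position of the first base in mRNA order, for all 3889 cores in coding sequence and the 501 cores of coding exon sites. Right, the share of coding cores with a CTCF site, between 11.9% and 16.4%; bars are 95% Wilson intervals.

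One base of the core differed with the reading frame. On the coding strand with the first base at codon position 3, the fifth to seventh bases of the core form 1 codon, and with T as the fifth base a matching core would read TAG there, a stop codon. T was the fifth base in 59 of 863 such cores (6.84%, 5.34 to 8.72%), against 21.1% (18.2 to 24.4%) at position 1 and 20.2% (15.8 to 25.6%) at position 2. On the template strand this base is read as its complement, and at position 1 T as the fifth base would give TAC or TAG. The shares there were 37.3% (33.1 to 41.7%), 11.7% (9.90 to 13.7%) and 24.9% (21.4 to 28.7%) at positions 1, 2 and 3. The fifth base thus also varied with frame on the template strand. A role of stop codons in these shares was not tested. Among coding strand cores with a site the counts of T were 3 of 112 (2.68%, 0.92 to 7.58%) at position 3 and 23 of 79 (29.1%, 20.2 to 39.9%) at position 1. A core with 1 mismatch can carry that T without spelling the stop codon.

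Coding exon sites lay in sequence rich in G and C. The median GC content within 50 bp of the summit was 59.4%, against 51.5% at positions every 50 bp along eligible coding sequence and 51.5% at intronic sites. The median number of CpG dinucleotides in that window was 3, against 2 along coding sequence and 1 at intronic sites. The density of sites rose with GC in every bin, from 5.96 per Mb below 45% to 40.5 per Mb between 50 and 55%, 115 per Mb between 60 and 65% and 557 per Mb at 70% or more. That last bin held 170 sites in 0.305 Mb.

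The share with the core fell as GC rose, from 50% (36.4 to 63.6%) below 45% to 26.5% (20.4 to 33.6%) at 70% or more. Intronic sites fell likewise, from 59.7% to 27.5%. Between 55 and 60% GC the share was 41.9% (37.0 to 46.9%) in coding exons and 49.6% (48.3 to 50.9%) in introns. The coding exon share was below the intronic share in each of the 7 bins, but the intervals were separate only between 50 and 55% and between 55 and 60%, and overlapped in the other bins. The part of GC content in the difference between coding exons and introns was not tested.

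**Figure D4:**
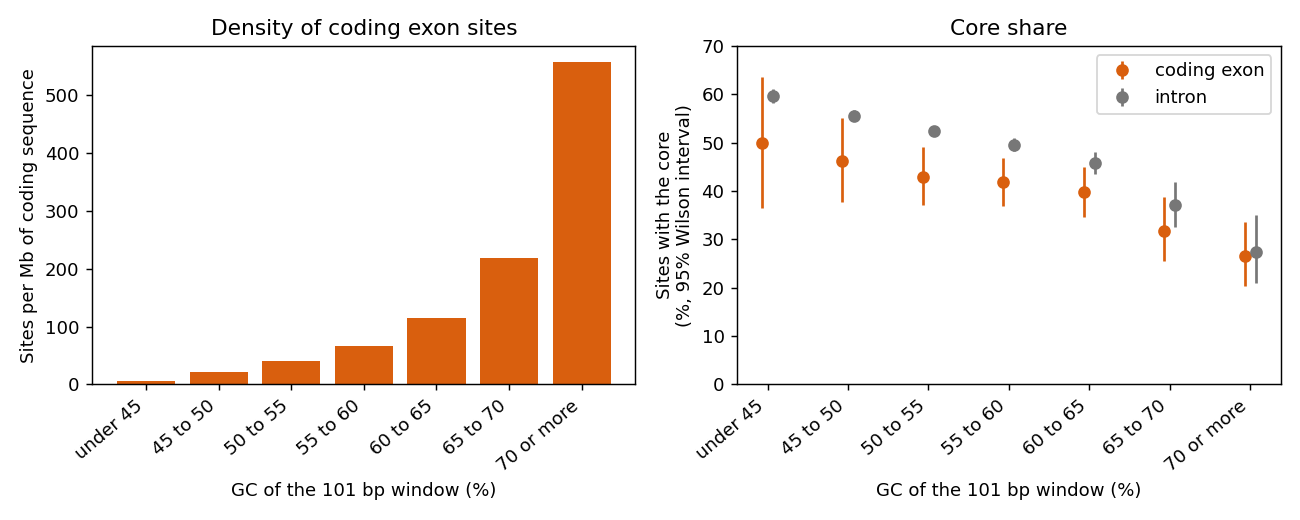
Left, coding exon sites per Mb of eligible coding sequence by the GC content within 50 bp of the summit, from 5.96 per Mb in the lowest bin to 557 in the highest. Right, the share of sites with the core in coding exons and introns by the same bins, with 95% Wilson intervals.

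Density also varied with the position in the gene, though over a narrower range than with GC content. Internal coding exons held 937 sites at 44.2 per Mb, first coding exons 91 at 78.2 per Mb, last coding exons 309 at 64.8 per Mb and genes with a single coding exon 95 at 69.9 per Mb. The core was at 43.1% of sites in internal exons, 34.6% in last, 27.5% in first and 24.2% in single coding exons. Density was 43.4 per Mb within 25 bp of an end of the coding exon and 60.6 per Mb at 100 bp or more from both ends, where an end can be a splice junction or the start or stop of the coding sequence. Density moved with exon length as well, from 39.8 per Mb in coding exons under 100 bp to 63.5 per Mb in those of at least 500 but under 1000 bp. In coding exons of 1000 bp or more it was lower again, at 51.75 per Mb. Sites were closer to other CTCF sites than intronic ones, with a median distance to the next site of 4314 bp against 6572 bp.

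Exons that are skipped in some transcripts held about as many sites as their share of coding sequence. Left out here were 1 site with coding sequence on both strands and 1 that no protein-coding transcript spans. Of the rest, 1354 (90.3%, 88.7 to 91.7%) lay in sequence that every protein-coding transcript spanning it keeps as an exon, against 90.8% of positions along coding sequence. The other 146 had the core at 42.5% (34.7 to 50.6%), against 38.9% (36.3 to 41.5%) at the 1354. The strongest of the 146 was in Slc22a15, a solute carrier, with 226 in replicate 1 and 225 in replicate 2, in an exon kept by 1 of 2 spanning transcripts. Ppp1r18, which binds protein phosphatase 1, had 222 and 202, in an exon coding in 1 of 6. Dcdc2b, a doublecortin domain gene, had 210 and 206, with its summit on the edge base of a coding exon and a perfect core that crosses it.

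Ptprc encodes CD45, the leukocyte phosphatase whose variable exons are spliced differently among blood cells, and CTCF at one of them is known to favour its inclusion. The Ptprc site lay in exon 5 of the longest transcript that codes there (33 exons), a coding exon of 147 bp at chr1:138120020-138120166 that 2 of 5 spanning protein-coding transcripts keep. Its summit was 55 bp from the nearer exon end and 609 bp from the nearest TSS of any transcript. The signal was 36.6 in replicate 1 and 25.8 in replicate 2, and the pooled value, 63.4, was below the median of coding exon sites. The core had 1 mismatch and lay on the template strand. Splicing was not measured in these data.

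Genes with more coding sequence more often held a site. The share of genes with a coding exon site was 2.37% (1.94 to 2.88%) among those with up to 500 bp of eligible coding sequence and 24.0% (20.9 to 27.5%) among those with over 5000 bp, while the density fell from 84.9 to 37.9 per Mb. Syne2, a giant nesprin that ties the nucleus to the cytoskeleton, had sites in 4 of its 115 coding exons. Its strongest, in coding exon 20, had 50.8 in replicate 1 and 56.8 in replicate 2, and its weakest, in coding exon 61, had 16.7 and 10.4. The related nesprin Syne1 had 3 sites, none in its representative transcript.

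Cul9, a cullin scaffold of ubiquitin ligases, had 3 sites that differed greatly in strength. The strongest had 220 in replicate 1 and 228 in replicate 2 with a perfect core, and it lay 35 bp from a TSS of some transcript. The second had 94.7 and 69.9, and the third 37.8 and 32.5, so the replicate ranges of the 3 did not overlap. F12, the coagulation factor that starts the contact pathway, had 3 sites, all with a core on the template strand. At F12 the values were 182 and 175 in the last of 14 coding exons, 162 and 148 in coding exon 8, and 21.2 and 9.46 in coding exon 10. Irs1, the docking protein of the insulin receptor, had 3 sites in its single coding exon of 3693 bp, with 73.7 and 59.6 at the strongest and 3.93 and 17.1 at the weakest.

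Gene lists differed in how many members held a coding exon site, read against 7.01% of all genes. That background is not matched to the lists for length or for GC content. It was 7.46% for eligible lengths over 1000 and up to 2000 bp, and 11.7% over 2000 and up to 5000 bp. The GC content of the lists was not compared, so their densities are not matched for it either. Over all eligible coding sequence, density rose from 5.96 per Mb below 45% GC to 557.5 per Mb at 70% or more. Among 20 genes of the Notch pathway, which sets cell fates between neighbours, 7 had one (35.0%, 18.1 to 56.7%): the ligands Dll1 and Jag1, the receptors Notch2, Notch3 and Notch4, and the target genes Hes1 and Hey1. Median eligible length in this list was 1850 bp, against 1098 bp for all genes, at 131 sites per Mb against 50.9. Hey1 had 219 in replicate 1 and 214 in replicate 2 with a perfect core in its last coding exon. Notch3 had 175 and 185, and Hes1 had 103 and 119, both without a core. The replicate values of these 3 genes did not overlap.

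Among 20 endothelial genes 6 had a site (30%, 14.5 to 51.9%), namely Flt4, Nos3, Notch4, Sox17, Tie1 and Vwf, and Notch4 counts in the Notch list as well. Median eligible length in the endothelial list was 2257 bp, at 158 sites per Mb. Vwf, the clotting factor carrier made by endothelium, had 222 in replicate 1 and 204 in replicate 2, without a core and 121 bp from a TSS of some transcript. Nos3, the endothelial nitric oxide synthase, had 112 and 101.1, 57 bp from such a TSS. Flt4, a receptor of lymphatic endothelium, had 79.7 and 81.4. These 3 sites did not overlap in their replicate values.

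The other lung lists had intervals that held the 7.01% of all genes, a share not matched for length. Of 29 lung epithelial genes 2 had a site (6.90%, 1.91 to 22.0%): Elf3, an epithelial transcription factor, with 57.8 and 67.7, and Abca3, the lipid transporter of surfactant-making cells, with 32.4 and 14.8. Of 30 mesenchymal and matrix genes 3 had one (10%, 3.46 to 25.6%). Their median eligible length was 3338 bp against 1098 bp for all genes, and their density 30.4 per Mb against 50.9. Loxl1, which crosslinks elastin, had 36.1 and 41.1, Ltbp4, which binds latent TGF-beta, had 23.6 and 31.6, and Foxf1, a transcription factor of lung mesenchyme, had 5.99 and 14.9. None of these 5 sites had a core. Of 19 blood and immune genes 2 had a site, Spi1 and Ptprc.

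Families of cytoskeletal motors and the list of ADAM and ADAMTS genes had larger shares. Kinesins, motors on microtubules, had 10 of 39 (25.6%, 14.6 to 41.1%), with Kif27 at 218 in replicate 1 and 234 in replicate 2, Kif13a at 207 and 211, and Kif19a at 195 and 204. Median eligible length of the kinesins was 2890 bp, at 92.6 sites per Mb. Axonemal dyneins, the motors of cilia, had 5 of 15 (33.3%, 15.2 to 58.3%), and their median eligible length, 12750 bp, was far above the 1098 bp of all genes. Per Mb the dyneins, at 31.8, were below the 50.9 of all genes. Dnah1, the strongest dynein, had 210 and 183 with a perfect core. Myosins had 7 of 39 (17.95%, 8.98 to 32.7%), with a median eligible length of 5435 bp. Their density, 39.6 per Mb, was also below that of all genes. ADAM and ADAMTS proteases cut cell surface and matrix proteins, and their list also held ADAMTS-like genes, which are not proteases. Of this list 13 of 58 genes had a site (22.4%, 13.6 to 34.7%) at 103 per Mb, led by the ADAMTS-like gene Adamtsl4 with 203 and 201.

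Keratins, the intermediate filament proteins of epithelia, had 14 of 53 genes with a site (26.4%, 16.4 to 39.6%) at 276 per Mb. The highest was in Krt88, with 143 in replicate 1 and 187 in replicate 2 and no core. Keratin genes resemble each other in sequence, and the labels and files do not state how reads that match more than 1 place were treated. Fox, Sox and Tbx transcription factors had 12 of 74 (16.2%, 9.53 to 26.2%), led by Sox8 with 195 and 173. Potassium channels had 12 of 92 (13.04%, 7.62 to 21.4%), led by Kcnj9 with 146 and 117 and a perfect core. Hox genes had 5 of 39 (12.8%, 5.603 to 26.7%), with Hoxd10 at 45.02 and 40.03. Their median eligible length was 275 bp, and of all genes with up to 500 bp 2.37% had a site. At 351.5 per Mb the Hox list had the highest density of the lists, from 5 sites in 0.0142 Mb.

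Some families had few coding exon sites or none. Zfp genes, zinc finger genes named by that prefix, had 17 of 392 (4.34%, 2.73 to 6.84%), with Zfp219 the highest. Olfactory receptors had 1 of 280 (0.36%, 0.06 to 2.00%), Olfr1358, with 38.4 in replicate 1 and 12.98 in replicate 2. Their median eligible length was 76.5 bp, against 1098 bp for all genes, and of all genes with up to 500 bp 2.37% had a site. Cytochrome P450 genes had 2 of 100 (2.00%, 0.55 to 7.001%). Ribosomal protein genes had 0 of 84 (upper limit 4.37%), and their median eligible length was 342 bp. Their interval held the 2.37% of all genes with up to 500 bp. Solute carriers had 21 of 384 (5.47%, 3.60 to 8.21%), an interval that held the background.

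**Figure D5:**
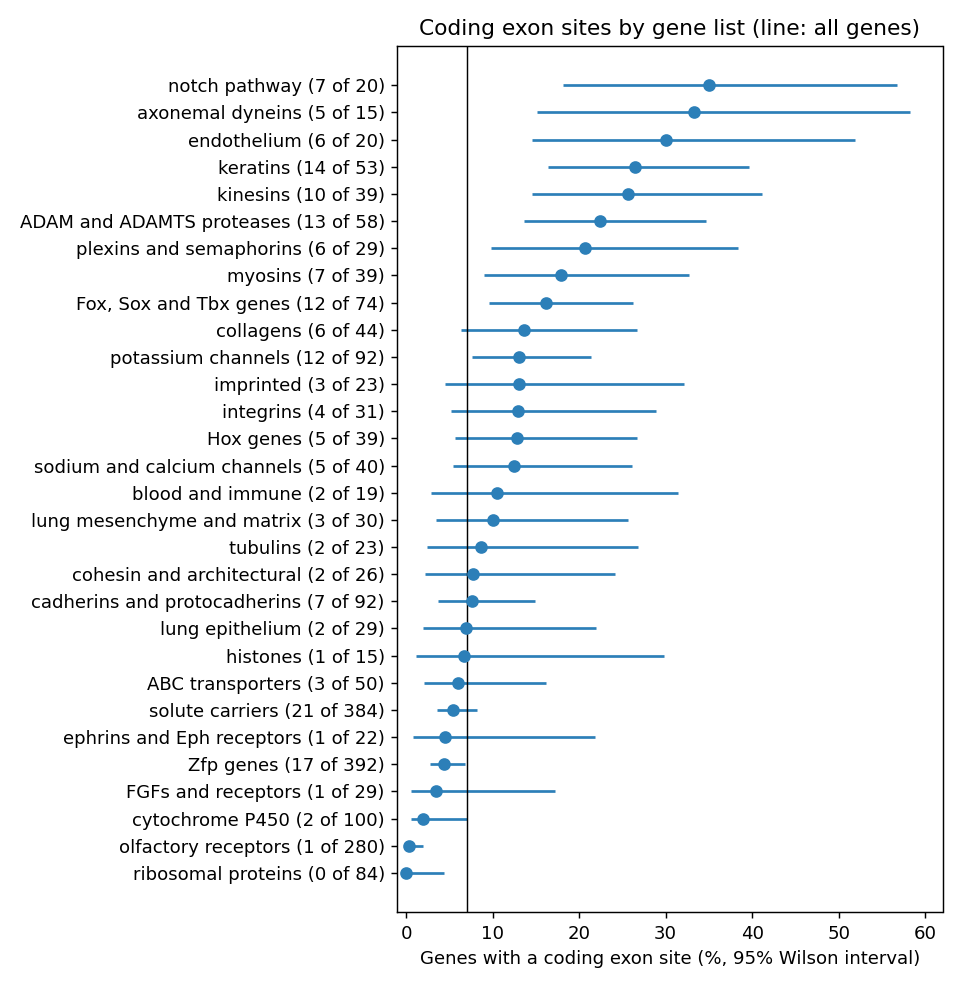
Share of the genes in each list of 15 or more genes that held a coding exon site, with 95% Wilson intervals, and a line at 7.01%, the share of all genes. Lists differ in coding length, and the counts are given beside the names.

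Among 26 genes of cohesin and other chromosome architecture 2 had a coding exon site (7.69%, 2.14 to 24.1%), near the 7.01% of all genes. Their median eligible length was 3158 bp against 1098 bp, and their density 24.5 per Mb against 50.9. Maz, a zinc finger protein, had 178 in replicate 1 and 167 in replicate 2, without a core and 231 bp from a TSS of some transcript. Smc4, a condensin subunit, had 57.4 and 46.9 in its first coding exon. Among 23 imprinted genes 3 had a site (13.04%, 4.54 to 32.1%). Plagl1, a zinc finger transcription factor, had 61.6 and 59.9 with a perfect core, Rasgrf1 had 39.8 and 49.2, and Igf2r, the receptor that clears IGF2, had 15.5 and 17.9. The replicate ranges of the 3 were separate, with Plagl1 highest.

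Chromosomes differed in density. Chromosome 11 had the most sites, 153 at 69.0 per Mb, and chromosome X the fewest, 15 at 13.6 per Mb. The autosomes ranged from 36.6 per Mb on chromosome 2 upward. The sites on X had a median pooled signal of 76.0, close to the 76.2 of all coding exon sites.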

How the data were processed

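CTCF ChIP-seq peaks of 2 replicates (1 group) of newborn mouse lung were used. Per the deposited descriptions of the files, each replicate's list came from its own alignments and 1 further file, and the pooled list from both. IDR thresholding of these gave an optimal and a conservative list. The assembly is mm10 per the labels. Which aligner, caller and IDR cut-off were used is not given in the sources used. The authors deposited a signal for each peak, the −log10 of its q-value (at most 5.08 in the optimal list) and the summit as an offset, and 1337 coding exon sites are at the largest q-value listed. Depth in reads is unknown.

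The members and the 31 gene lists were chosen with earlier results of these data known. Genes named are the 12 highest sites by mean rank over replicates (predicted names skipped), the highest of each list (3 in lists under 40 genes), the 5 genes with most sites, the 3 highest without a core, the highest of each strand and codon position, the 3 highest in skipped exons and the 3 lowest. A pattern for tubulins also took Tubgcp3, which is not a tubulin. The list of ADAM and ADAMTS proteases also held ADAMTS-like genes such as Adamtsl4, which are not proteases. The Ptprc sequence was added after its values were seen.

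Replicate values are those of the highest replicate peak within 100 bp of the summit. The CTCF core was searched on both strands of GRCm38 (RefSeq), with at most 1 mismatch and its centre within 50 bp. Codon positions came from the CDS phase in GENCODE M21. The representative transcript had a CCDS tag where one did, then the principal APPRIS tag, then the longest coding sequence. Each summit took the first class that held it: promoter, coding, untranslated, other exon, intron, intergenic. With 1 group, no test was made; shares have 95% Wilson intervals, and sites are not replicates. Tested on simulated random sequence, the search recovered all of 499 planted perfect cores (100%) with strand and frame. Cores with a mismatch were not planted, so their recovery was not tested. Python 3.11.15, numpy 2.4.6 and pandas 2.3.3 were used. Alternatives were other peak lists, each replicate alone, other distances and mismatch limits, CCDS transcripts only, and dropping the 1322 sites within 500 bp of a stronger one.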

Additional observations from a re-analysis of the deposited data

Results flagged for a closer look

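Peaks of the pooled list that lay in coding exons but outside both IDR lists, with no listed site within 2000 bp, were set beside the coding exon sites because they are data outside the main measurement. Of 3922 such peaks, 279 held the core within 50 bp (7.11%, 6.35 to 7.96%), against 1.16% (0.95 to 1.42%) of windows 1000 bp away. By pooled signal the share was 14.7% in the top quartile and 2.96% (2.07 to 4.21%) in the bottom one, where the flanking windows had 0.71% (0.43 to 1.19%). The median pooled signal of these peaks was 7.46, against 76.2 at the coding exon sites.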

How the results depend on the processing

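Of 126 alternative values over 13 results, 2 turned the direction and 23 moved beyond a tolerance: the Wilson interval for shares and their differences, 1.5 times for the number and density of sites, and the SD between replicates for signals and for GC, where it was 0. Among the 32366 sites of highest signal there were 751 coding exon sites at 25.3 per Mb, with the core at 51.3%, a median log2 signal of 7.62, a difference from introns of -0.0177, a site at 9.04% of coding cores (-0.69 percentage points from introns) and at 3.65% of genes; this list is shorter by construction. With no mismatch the core share was 8.99% (-3.82 points from introns) and 54.2% of cores had a site (-10.8 points); with 2 mismatches these were 73.0% (-7.96) and 3.36% (0.0539, the other direction). Within 25 bp the core share was 36.4% and the share of cores with a site 12.7%. The signal difference from introns was 0.0303 in the conservative list and 0.0295 to 0.0750 with either replicate left out. With TSS distances of 500 and 2500 bp, 7.49% and 6.21% of genes had a site and median GC was 60.4% and 58.4%. With CCDS transcripts only, 92.1% of sites were in exons never skipped. Beyond what each setting removes by construction, the cause was not tested. The median signal of single-replicate lists is on another scale and was not compared, and no paired analysis was possible because there is 1 group. Sites in the bottom quartile of signal differ most between replicates, and short gene lists have wide intervals.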
